A study of Mus musculus with 6 samples.

Results

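The promoters of cytosolic ribosomal protein genes were examined as a housekeeping set in chromatin accessibility profiles of mouse quadriceps femoris, the extensor muscle at the front of the thigh. Members were the peaks that the deposited annotation classes as Promoter1k, its class for peaks next to a transcription start site, and assigns to a gene named Rpl or Rps followed by a number. Kinases of the Rps6k family and pseudogenes were left out. The rule gave 71 peaks of 70 genes, among 14333 Promoter1k peaks and 75134 peaks in all. There were 44 peaks of 43 large subunit (Rpl) genes and 27 peaks of 27 small subunit (Rps) genes, and only Rpl3l had more than 1. Libraries were made by ATAC-seq, in which Tn5 transposase inserts adapters into open chromatin, from nuclei of snap-frozen muscle. There were 3 libraries of Prr14-KO muscle (KO, replicates 4, 5 and 7) and 3 of Prr14-WT muscle (WT, replicates 3, 4 and 8). PRR14 is a protein of the nuclear lamina that tethers heterochromatin to the nuclear edge. The sources used here do not state age, sex, strain background, a driver of the deletion or the deleted part of Prr14. Since the labels do not tie each library to an animal of its own, the p-values refer to the spread of these samples alone, and part of it may be technical.

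Cytosolic ribosomes join a small and a large subunit, each built of ribosomal RNA and of proteins that are needed in equal amounts. The genes of these proteins are scattered over the genome and are active in nearly every cell. Their promoters usually start transcription within a run of pyrimidines, often lack a TATA box, and are known in mammals to carry sites for ETS factors such as GABP and for YY1. Skeletal muscle has a paralog of its own, Rpl3l, which takes the place of Rpl3 in ribosomes of mature fibres and heart.

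The promoter sequences of 7 genes show the range of architectures in the set, taken from RefSeq on build GRCm38.p6 and running from 130 bases before the start site to 20 bases from it on. The genes are the 3 of highest and the 1 of lowest KO over WT ratio, the one with most signal per length, and 2 paralogs. Capitals mark the ETS letters CCGGAA, the YY1 letters ATGGCGG, the box CCAAT or the TATA letters TATAAA on either strand, the E-box CACGTG, and the initiator letters CTTTC within 20 bases of the start on the sense strand.
Rpl27a, chr7:109519065-109519214, plus strand: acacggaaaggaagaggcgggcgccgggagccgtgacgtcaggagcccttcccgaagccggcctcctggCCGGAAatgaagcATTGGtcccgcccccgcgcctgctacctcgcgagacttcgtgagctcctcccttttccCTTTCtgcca
Rpl38, chr11:114668450-114668599, plus strand: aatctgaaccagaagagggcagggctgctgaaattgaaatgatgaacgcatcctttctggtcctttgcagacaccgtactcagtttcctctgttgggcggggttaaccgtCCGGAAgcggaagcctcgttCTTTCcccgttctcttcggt
Rpl26, chr11:68901436-68901585, plus strand: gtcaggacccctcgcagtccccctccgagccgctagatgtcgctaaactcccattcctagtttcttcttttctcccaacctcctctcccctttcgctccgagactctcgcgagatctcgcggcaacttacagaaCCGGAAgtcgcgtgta
Rpl14, chr9:120571387-120571536, plus strand: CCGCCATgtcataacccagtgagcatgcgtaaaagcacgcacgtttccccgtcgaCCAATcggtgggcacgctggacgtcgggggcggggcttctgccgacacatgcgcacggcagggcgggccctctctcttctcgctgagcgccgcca
Rps19, chr7:24884462-24884611, plus strand: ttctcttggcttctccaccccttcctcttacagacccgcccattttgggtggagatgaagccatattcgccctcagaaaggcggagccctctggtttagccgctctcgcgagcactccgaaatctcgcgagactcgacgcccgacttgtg
Rpl22l1, chr3:28805378-28805527, plus strand: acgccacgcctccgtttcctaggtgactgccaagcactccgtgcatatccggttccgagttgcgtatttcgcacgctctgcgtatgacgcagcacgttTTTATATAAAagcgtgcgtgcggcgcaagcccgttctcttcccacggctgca
Rpl3l, chr17:24732555-24732704, plus strand: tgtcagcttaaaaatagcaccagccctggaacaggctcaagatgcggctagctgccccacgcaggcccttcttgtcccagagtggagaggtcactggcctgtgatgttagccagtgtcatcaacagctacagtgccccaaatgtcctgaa

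Rpl27a, a large subunit protein mutated in a mouse ataxia strain, had ETS, CCAAT and initiator letters in this stretch, and its YY1 match lay outside the printed bases. Rpl38, required for normal axial patterning in mice, held an ETS match upstream and CTTTC at the start. The Rpl26 stretch held an ETS match just inside the transcript, and Rpl14 had YY1 letters at its far end and a CCAAT box. Rpl22l1, a paralog of Rpl22, had overlapping TATA letters on both strands, while the stretches of Rps19 and of the downstream Rpl3l start held none of the marked letters.

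Promoter sequences of 300 bases, 250 before and 50 from the start on, matched 53 member peaks of 52 genes whose start site the peak covered. The initiator letters CTTTC were in 26.4% of them, against 4.68% of 12472 promoters of genes with a Promoter1k peak and 5.66% of all 32851 promoters. The 12472 are all promoters of such genes, the members' genes included, whether or not a peak covers that start. The sets were thus filtered differently. ETS letters were in 45.3% of the members' promoters, 24.4% of those of genes with a Promoter1k peak and 14.9% of all. YY1 letters were in 17.0%, against 6.85% and 4.06%. Ribosomal protein promoters thus held these 3 motifs more often than either comparison set, as a description without a test. The Sp1 letters GGGCGG, on either strand, were in 60.4% of members and in 61.0% of promoters of genes with a Promoter1k peak. CCAAT was in 32.1% and 36.8%. TATAAA was in 9.43% of members and 7.63% of promoters of genes with such a peak. The E-box was in 9.43% and 9.70%, and the MEF2 pattern searched had a match in 0 of 53 members and 3.16%. Over all promoters the shares were 35.7% for Sp1, 37.4% for CCAAT, 13.6% for TATAAA, 7.15% for the E-box and 3.69% for this MEF2 pattern. The letters of the MEF2 pattern are not given here, and other forms of the motif were not searched. Its 0 therefore does not show that the members, Rpl3l among them, lack MEF2 sites. A match only says that the letters are in the window.

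**Figure D1:**
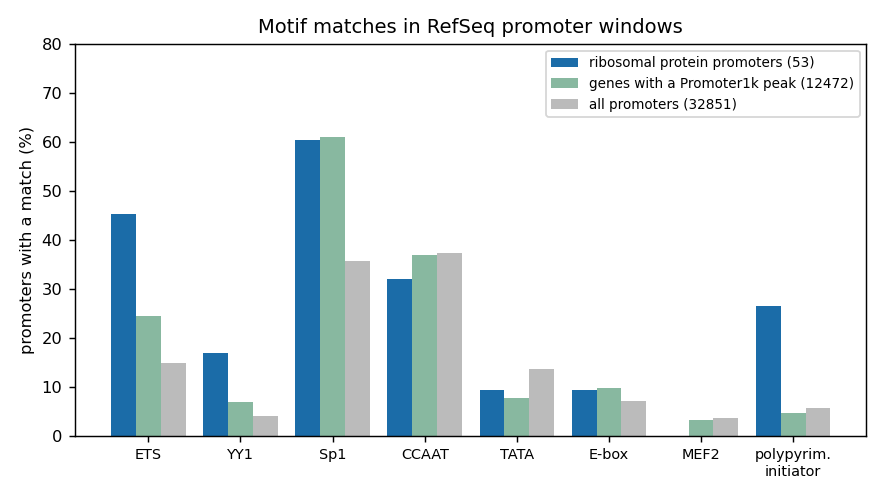
Share of promoter windows of 300 bases (percent, vertical axis) that hold each motif, for 53 ribosomal protein promoters (blue), 12472 promoters of genes with a Promoter1k peak (green) and all 32851 promoters of the table (grey). The blue bars stand above both others for ETS (45.3%), YY1 (17.0%) and the pyrimidine initiator (26.4%), and next to the green bar for Sp1 (60.4% against 61.0%).

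Of ETS, YY1 and initiator letters, only Rpl27a had all 3, 11 member promoters had 2, 22 had 1 and 19 had none, among them both Rpl3l starts, Rps19, Rps4x, Rpl22 and Rpl22l1. Rpl3l also differed in base composition. Its 2 windows had 0.0892 and 0.134 of the CpG dinucleotides that their C and G content would give, where 0.0892 was the lowest of the set. By contrast, the members' median was 0.854, that of promoters of genes with a Promoter1k peak 0.729 and that of all promoters 0.384. The GC content had a median of 58.0% in members and 60.3% in promoters of genes with a Promoter1k peak.

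Ribosomal protein promoters were among the more accessible promoters of this muscle. Each level is a count per 1000000 (CPM) after scaling with TMM factors, which set libraries against each other on most of their peaks, and genes are compared per kb of peak. The members' median was 24.5 CPM per kb over the 6 libraries, against 16.1 CPM per kb over all tested Promoter1k peaks, and 63 of 71 members lay above the Promoter1k median. Rps19, a small subunit protein mutated in human Diamond-Blackfan anaemia, had the most signal at 66.1 CPM per kb. Rpl13a, known in human monocytes as part of an inhibitor of translation, followed with 45.9 and Rps21 with 43.2 CPM per kb. Rps4x, the X-linked copy of the Rps4 family, had the least at 10.7 CPM per kb. The 4 members on the X chromosome, Rpl10, Rpl36a, Rpl39 and Rps4x, had a median of 15.02 CPM per kb. Per peak, with no correction for width, the 5 highest members included Rps21 (69.5 CPM), the downstream Rpl3l peak (67.2), Rps19 (59.5) and Rpl13a (55.4). The 5 lowest were Rps4x (10.6 CPM), Rpl36a (14.5), Rpl37a (15.3), Rpl17 (15.7) and Rpl36 (16.7).

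The members were spread over 19 chromosomes, with 13 peaks on chromosome 7. Most were centred near their start site: 58 of 71 lay within 200 bases of it and the farthest at 476 bases, by the deposited distance. Peak widths ran from 683 to 1969 bases with a median of 1225, against 1176 for Promoter1k peaks. Some members were neighbours, such as Rps2 and Rpl3l, 7198 bases apart on chromosome 17. Many of these genes have processed pseudogenes of near-identical exon sequence, so reads at first exons are uncertain where the counting could not place them.

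The Prr14 promoter peak itself (chromosome 7, 127470286 to 127472182) had 51.2, 59.6 and 70.6 CPM in KO libraries and 62.2, 66.4 and 57.1 CPM in WT libraries. The groups overlapped, the log2 fold change was -0.03 (SE 0.18, edgeR adjusted p = 0.961), and since the deleted part is unknown this does not check the labels. Total counts in peaks were 9346968 to 12061822 in KO and 7608514 to 11575061 in WT. Promoters of all 10 muscle fibre markers had peaks, with summed levels of 817 to 899 CPM in KO and 738 to 1162 CPM in WT. Of these, Myh4, the fastest myosin heavy chain (log2 fold change -1.08), and Myl1, an essential light chain (-0.82), were lower in KO. The remaining fibre markers did not pass the test. Over all 10 the median log2 fold change was -0.11, the highest was 0.22 and 1 was above 0. Endothelial markers had peaks at 4 of 5 genes, with sums of 36.9 to 53.2 CPM in KO and 27.02 to 43.9 CPM in WT, and Cldn5, a tight junction protein, was higher in KO (0.71). The other 3 did not pass the test, with log2 fold changes of 0.19 at Kdr, -0.26 at Cdh5 and -0.55 at Tie1. None of 4 macrophage and leukocyte markers had a Promoter1k peak. Sums over fibro-adipogenic markers were 59.1 to 75.4 CPM in KO and 58.6 to 66.4 CPM in WT, over satellite cell markers 23.5 to 25.7 and 18.8 to 26.95, over smooth muscle markers 13.6 to 13.9 and 11.3 to 12.6, and over the 1 of 2 adipocyte markers with a peak 10.02 to 16.4 and 9.93 to 13.4 CPM. The part of cell composition in the results on ribosomal protein genes was not tested, and in bulk tissue fewer cells of a type and less open chromatin per cell cannot be told apart.

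No ribosomal protein promoter passed the test between KO and WT. By edgeR's quasi-likelihood test over 73896 peaks, adjusted after Benjamini and Hochberg and called below 0.05, 0 of 71 members were higher and 0 lower in KO. In the same fit 2.77% of all tested peaks were higher and 4.23% lower, and 1.05% and 1.03% of the 14319 tested Promoter1k peaks. All 71 members passed the filter on low counts, with 78 to 915 counts in a library. The smallest edgeR adjusted p was 0.397, and 0 members had an unadjusted p below 0.05, against 7.05% of tested Promoter1k peaks and 17.0% of all. DESeq2 called 0 with 1 at an unadjusted p below 0.05, and limma-voom called 0 with 0. Other edgeR fits had 2 such members with total counts, 3 without WT replicate 3 and 1 without WT replicate 4. In the authors' deposited table, likewise, 0 of 71 members had an adjusted p below 0.05, where 2.44% of peaks with an adjusted p were higher and 0.872% lower in KO.

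On the TMM scale, the data bound the change of each promoter. Other library factors shift the values, as given below. Standard errors of the log2 fold change were 0.18 to 0.23, and all 71 of the 95% intervals held 0. The lowest bound was -0.62 at Rps4x and the highest 0.71 at Rpl26, so every interval lay within 1 log2 unit of 0. For 40 of 71 members, or 56.3%, the whole interval lay within 0.5 log2 units, compared with 47.6% of 9784 other Promoter1k peaks in the same range of level and 36.5% of all tested Promoter1k peaks. These others, called of like level below, share the members' range of CPM and were not matched further. Their median was 25.2 CPM, against 29.7 CPM in members.

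**Figure D2:**
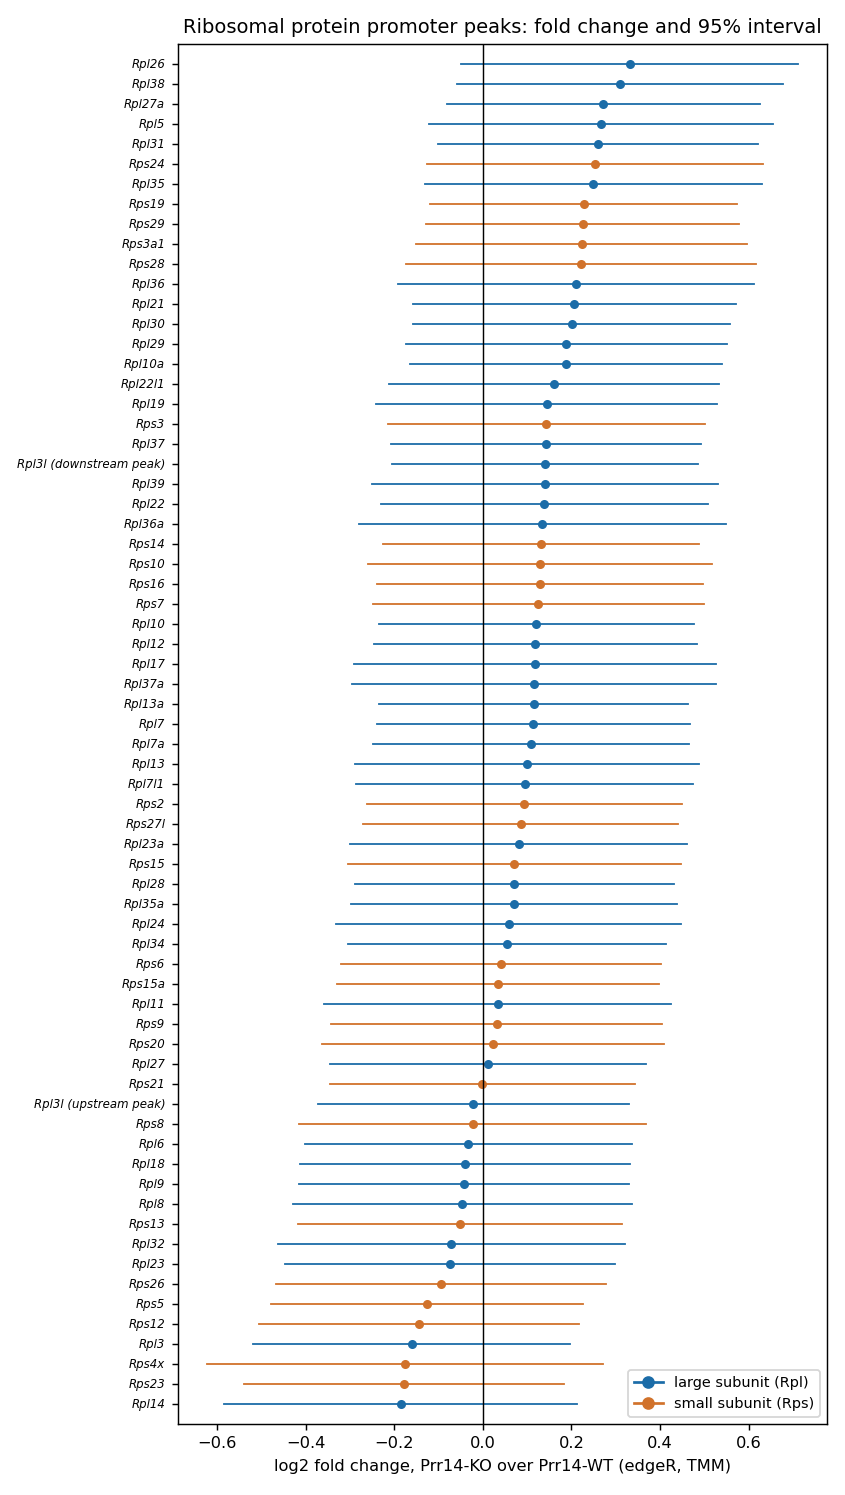
Log2 fold change of KO over WT (horizontal axis) for 68 of the 71 member peaks, 1 per line, with its 95% interval from the edgeR fit; blue marks large and orange small subunit genes. All intervals shown cross 0 and the points run from 0.33 at Rpl26 to -0.19 at Rpl14, whose sign turns to 0.01 with the authors' library factors.

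As a set, the members sat slightly above 0. Their median log2 fold change was 0.11, against 0.06 over tested Promoter1k peaks, 0.07 over the 9784 others of like level and -0.01 over all tested peaks. Of the members 53 were above 0 and 18 below. The share above 0 was thus 74.6%, against 67.0% of the others of like level. It was 62.9% of tested Promoter1k peaks and 48.8% of all tested peaks. Large subunit genes had a median of 0.11 and small subunit genes of 0.07. The SD over the 71 fold changes was 0.12, less than the 0.22 over Promoter1k peaks of like level. Without KO replicate 7 the members' median was 0.02 and that of all tested peaks -0.02. Without WT replicate 8 it was 0.06 for members, with 0.04 for all peaks, and without WT replicate 4 it was 0.18 and 0.02. Members did not stay above tested Promoter1k peaks in every such fit: the medians were 0.117 and 0.127 without WT replicate 3, and 0.0585 and 0.0667 without WT replicate 8. Without KO replicate 7 members stayed slightly above, at 0.0220 and 0.0150. In the authors' deposited table all 71 members had a log2 fold change above 0, from 0.01 to 0.54 with a median of 0.30. There, however, the median over all tested peaks was 0.19 also. Above 0 in that table were 9005 of the 9784 others of like level and 12418 of 14319 tested Promoter1k peaks. The same held for 50027 of all 73896 tested peaks. The offset of members from all peaks was 0.12 with TMM and 0.11 with the authors' library factors. Those factors ran only from 0.977 in KO replicate 7 to 1.035 in KO replicate 5. Total counts in peaks ran from 7608514 in WT replicate 8 to 12061822 in KO replicate 5, so the factors do not follow them. What the factors were computed from is not stated.

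**Figure D3:**
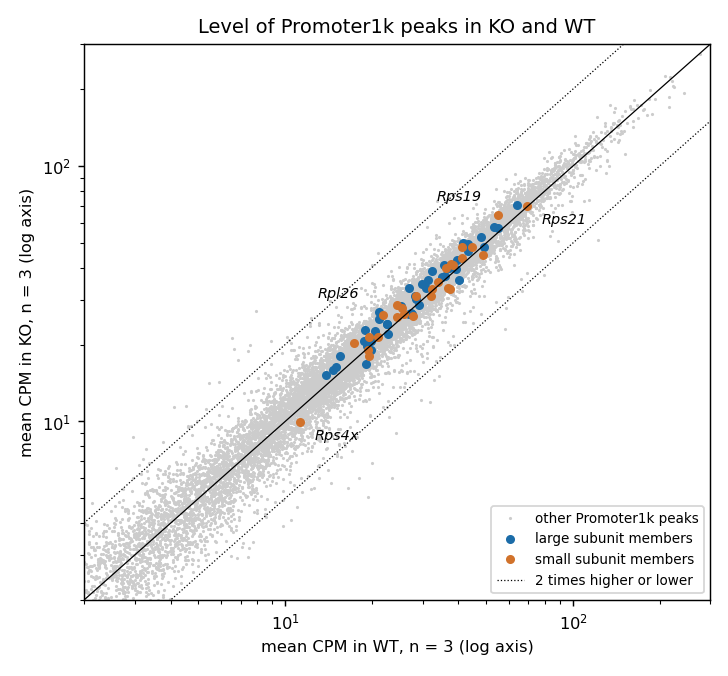
Mean CPM in KO (vertical, log axis) against mean CPM in WT (horizontal, log axis), n = 3 libraries each, for member peaks (blue large, orange small subunit) and other tested Promoter1k peaks (grey); 523 grey peaks lie outside the axes of 2 to 300 CPM. Members follow the solid line of equal level, from Rps4x at 9.98 CPM in KO and 11.2 CPM in WT to Rps21 at 69.5 CPM in both, and none reaches the dotted lines of 2 times.

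Of the 3 members highest in KO, Rpl26, a large subunit protein that also binds the p53 transcript, had 25.2, 28.4 and 26.7 CPM in KO and 23.3, 20.2 and 20.2 CPM in WT. Every KO library stood above every WT library, and the log2 fold change was 0.33 (95% interval -0.05 to 0.71, edgeR adjusted p = 0.397). Rpl38 had 30.0, 30.5 and 39.6 CPM in KO and 30.8, 27.2 and 22.5 CPM in WT. Here KO replicate 7 was high, the groups overlapped, and the log2 fold change was 0.31 (SE 0.19, edgeR adjusted p = 0.424). Rpl27a had 41.9, 51.5 and 56.8 CPM in KO and 49.9, 37.7 and 36.7 CPM in WT, again with overlap, and a log2 fold change of 0.27 (SE 0.18).

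At the other end, Rpl14, a large subunit protein, had 16.6, 16.4 and 17.3 CPM in KO and 21.5, 17.8 and 17.9 CPM in WT. Its groups did not overlap, WT replicate 3 being the high one, yet the log2 fold change of -0.19 (95% interval -0.58 to 0.21) became 0.01 with the authors' library factors. Rps23, which lies at the decoding centre, had 26.3, 34.4 and 38.5 CPM in KO and 42.5, 35.2 and 34.6 CPM in WT, with a log2 fold change of -0.18 that became 0.03 with those factors. Rps4x had 10.1, 11.6 and 8.23 CPM in KO and 9.87, 13.6 and 10.3 CPM in WT. Its log2 fold change of -0.18 became 0.02 with the authors' factors and 0.02 without WT replicate 4, the library in which it was highest.

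**Figure D4:**
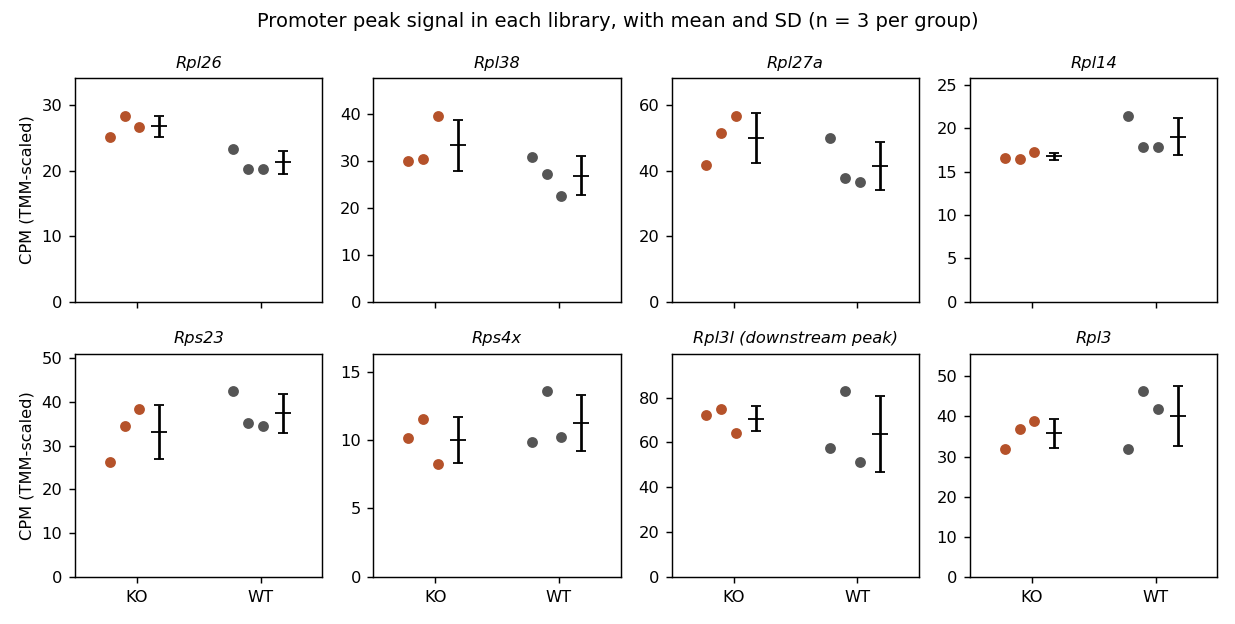
TMM-scaled CPM (vertical axis, from 0) of 8 member peaks in each KO library (orange) and each WT library (grey), with mean and SD (black, n = 3). Groups are apart for Rpl26 (KO higher) and Rpl14 (KO lower with TMM, log2 fold change 0.01 with the authors' library factors) and overlap for the other 6.

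In all, KO and WT ranges overlapped in 65 of 71 members. Every KO library was above every WT library in 5 members, or 7.04%, against 6.78% of tested Promoter1k peaks, and below in 1 member, Rpl14, or 1.41%, against 4.45%. The share with KO above was thus near that of promoters at large. The 5 were Rpl26, Rpl31, Rps24, Rps19 and Rpl21. Rps19 averaged 64.2 ± 3.73 CPM in KO and 54.8 ± 1.75 CPM in WT (SD, n = 3 each), and its log2 fold change was 0.23 (SE 0.18). Rps24, like Rps19 a Diamond-Blackfan gene in humans, averaged 26.2 ± 3.37 CPM in KO and 21.9 ± 1.88 CPM in WT.

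None of the members known for a role outside the ribosome or in disease passed the test. Rpl5 and Rpl11, which with the 5S RNA bind the p53 regulator MDM2, averaged 22.8 ± 2.68 and 19.8 ± 4.52 CPM in KO, and 19.0 ± 3.43 and 19.2 ± 3.33 CPM in WT. Rps6, the substrate of the S6 kinases, had 35.1 ± 5.03 CPM in KO and 34.0 ± 5.23 CPM in WT. Rps3, which also acts in DNA repair, averaged 40.001 ± 2.34 CPM in KO and 36.2 ± 5.51 CPM in WT. Rps14, lost in the human 5q- syndrome, averaged 41.4 ± 2.40 CPM in KO and 37.8 ± 1.58 CPM in WT, and Rpl13a 57.6 ± 4.27 and 53.2 ± 7.34 CPM. The log2 fold changes of these 6 ran from 0.03 at Rpl11 to 0.27 at Rpl5.

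The muscle paralog Rpl3l had a peak at each of 2 annotated starts, with 2609 bases between the peaks. The downstream peak (chromosome 17, 24731767 to 24733540) had 72.2, 75.1 and 64.4 CPM in KO and 57.3, 83.1 and 51.1 CPM in WT. The upstream peak (24727588 to 24729158) had 47.4, 49.7 and 47.9 CPM in KO and 46.2, 63.2 and 37.3 CPM in WT. In both, WT replicate 4 was the highest and WT replicate 8 the lowest of all 6 libraries, so the KO values lay inside the WT range. The log2 fold changes were 0.14 (SE 0.18) downstream and -0.02 (SE 0.18) upstream, and the downstream value became 0.41 without WT replicate 4, 0.06 without WT replicate 8, 0.09 without WT replicate 3, 0.23 without KO replicate 7 and 0.31 with the authors' library factors. The upstream value became 0.24 without WT replicate 4 and 0.15 with the authors' library factors. Rpl3, the general copy, had 31.8, 36.8 and 38.9 CPM in KO and 32.0, 46.4 and 41.9 CPM in WT, a log2 fold change of -0.16 that became 0.05 with the authors' library factors.

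Between libraries, Rpl3l ranked far from the median member in WT replicate 4 and in KO replicate 7. Relative to its own mean of 6 libraries, on the log2 CPM scale, the upstream peak stood 0.40 and the downstream peak 0.32 above in WT replicate 4, the first and the third highest of 71 members there. In KO replicate 7, where the median member was 0.19 above its mean, they stood at -0.0044 and -0.04, in places 64 and 68. This was not particular to Rpl3l. Rps4x stood at 0.37 in WT replicate 4 and -0.35 in KO replicate 7, in places 2 and 71. Rpl32 stood at 0.25 and -0.09 there, in places 5 and 70. The 10 muscle fibre markers had medians of 0.37 in WT replicate 4 and -0.08 in KO replicate 7, while the members' median in WT replicate 4 was 0.08. Their part in the Rpl3l values was not tested.

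Other paralogs did not pass the test either. Rpl22, whose protein in mice also limits the expression of Rpl22l1, averaged 31.1 ± 7.97 CPM in KO and 28.3 ± 1.01 CPM in WT (SD, n = 3 each), and its log2 fold change of 0.14 became -0.07 without KO replicate 7, where it had 40.3 CPM. Rpl22l1 averaged 28.4 ± 4.92 CPM in KO and 25.4 ± 2.98 CPM in WT, a log2 fold change of 0.16. Rps27l, a target of p53, averaged 43.6 ± 7.65 CPM in KO and 41.1 ± 1.61 CPM in WT. Its log2 fold change of 0.08 became -0.01 when libraries were scaled to the summed counts of the members. Rpl7l1 averaged 24.1 ± 2.10 CPM in KO and 22.6 ± 0.70 CPM in WT.

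Taken library by library, the members held different shares of the counts within both groups. They made up 0.217%, 0.235% and 0.260% of all counts in peaks in KO replicates 4, 5 and 7, and 0.231%, 0.222% and 0.196% in WT replicates 3, 4 and 8. The group means were 0.237% ± 0.0212 in KO and 0.216% ± 0.0182 in WT (SD, n = 3 each), and the ranges overlapped. The difference of 0.0212 percentage points was 0.0101 without KO replicate 7 and 0.0111 without WT replicate 8. As a share of counts in Promoter1k peaks, members held 0.473%, 0.514% and 0.536% in KO and 0.492%, 0.493% and 0.407% in WT. KO replicate 7 was highest and WT replicate 8 lowest on both denominators.

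The same 2 libraries stood at the ends for single promoters. KO replicate 7 was the highest library in 41 of 71 members, and WT replicate 8 the lowest in 44. The median member stood at -0.09, 0.04 and 0.19 in KO replicates 4, 5 and 7 and at 0.02, 0.08 and -0.22 in WT replicates 3, 4 and 8, as log2 CPM against its own mean. Other Promoter1k peaks of like level had medians of -0.10, 0.04 and 0.16 in KO and 0.08, -0.02 and -0.16 in WT, while the medians over all tested peaks lay between -0.02 and 0.02. Ribosomal protein promoters thus had the signs of other promoters in 5 of 6 libraries, with WT replicate 4 the exception. The ratio of large to small subunit counts was 1.54, 1.59 and 1.59 in KO and 1.53, 1.56 and 1.48 in WT.

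**Figure D5:**
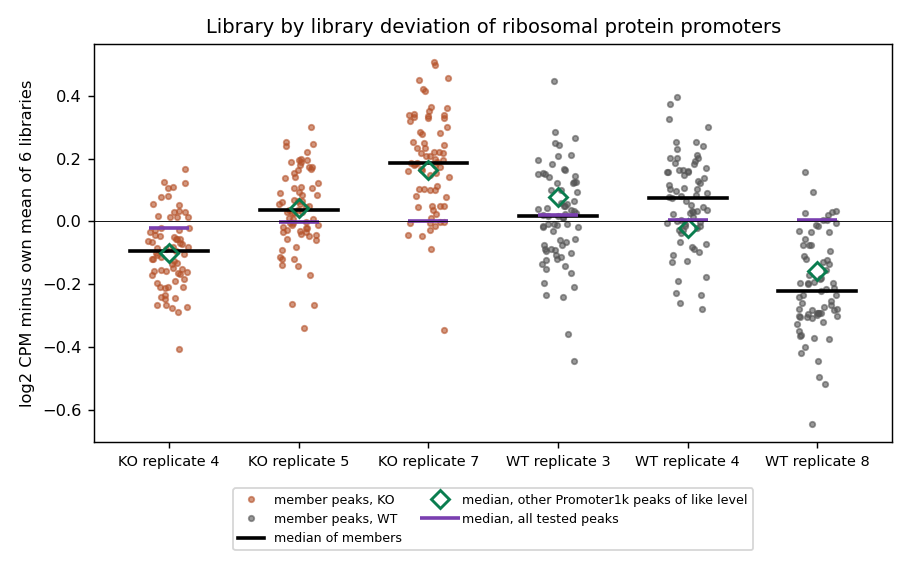
Log2 CPM of each member peak minus its own mean over the 6 libraries (vertical axis) by library, KO in orange and WT in grey, with the members' median (black line), the median of 9784 other Promoter1k peaks of like level (green diamond) and of all tested peaks (purple line). The black line is highest in KO replicate 7 (0.19) and lowest in WT replicate 8 (-0.22), and the diamonds there lie at 0.16 and -0.16.

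The spread of the members was compared with that of other promoters. The median SD of a member within groups was 0.20 log2 units, as in Promoter1k peaks of like level at 0.20. After each library's median over the same set was subtracted, it was 0.12 in members and 0.17 in the others, where counting noise alone would give members 0.09. Between libraries of 1 group the members' counts differed by 2.42 to 4.60 times the chi-square that counting noise gives per degree of freedom, and each library was counted as 1 sample. Scaling libraries to the members' own counts in place of TMM multiplied library sizes by 0.938, 1.03 and 1.13 in KO and by 1.01, 1.04 and 0.867 in WT. Under this housekeeping scale 1139 peaks were higher and 3234 lower in KO, against 2049 and 3128 with TMM, so the higher ones made up 26.0% of calls in place of 39.6%. With the authors' library factors, which shift the median of all peaks to 0.19, 1620 were higher and 752 lower, or 68.3%.

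Members with and without a motif had these medians, given without a test. The median log2 fold change was 0.12 for 24 promoters with ETS letters and 0.10 for 29 without, 0.07 for 9 with YY1 letters and 0.12 for 44 without, and 0.11 for 14 with the initiator and 0.09 for 39 without. The median level was 21.95 CPM per kb with ETS letters and 23.6 without, and 22.7 with the initiator and 23.6 without.

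Some ribosomal protein genes lie outside the set. RefSeq held 81 protein-coding names of the pattern, of which 70 had a member peak. Rpl15, Rpl36al, Rpl4, Rpl41, Rps18, Rps25 and Rps27 have their start in a Promoter1k peak annotated to a neighbouring gene. These 7 peaks had log2 fold changes of -0.09 at Rpl4 to 0.29 at Rpl36al, and none was called. Rpl10l, Rpl32l and Rpl39l had no peak at the start, and Rps27a was not analysed here. Names outside the pattern were described also: the stalk proteins Rplp0, Rplp1 and Rplp2, the laminin-binding Rpsa, the ubiquitin-like fusion Fau and the scaffold Rack1. Their log2 fold changes ran from -0.11 at Rplp1 to 0.24 at Fau, and none was called.

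Promoters of the wider translation machinery were read in the same fit, with 1 peak per gene. Of 56 mitochondrial ribosomal protein genes, 0 were higher and 0 lower in KO, with a median log2 fold change of 0.03. By edgeR 3 of the 56 had an unadjusted p below 0.05, as did 7.05% of tested Promoter1k peaks. Of all tested Promoter1k peaks, 1.05% were higher and 1.03% lower in KO. Of 32 tested translation factor genes 1 was higher and 0 were lower, with a median of 0.08. The one was Eef1a1, the elongation factor that delivers aminoacyl-tRNA, with 40.1, 42.3 and 56.0 CPM in KO and 33.7, 21.8 and 34.8 CPM in WT. Every KO library was above every WT library, as in 6.78% of tested Promoter1k peaks. The log2 fold change was 0.62 (SE 0.18, edgeR adjusted p = 0.0154). Eef1a1 has near-identical processed copies, so its value is uncertain, while Eef1a2, the form of mature muscle, averaged 147 ± 10.5 CPM in KO and 153 ± 38.7 CPM in WT. None of 31 ribosome biogenesis genes was called (median 0.09), such as Npm1 (0.25) and Ubtf (0.04). The same held for 14 genes of mTORC1 and Myc control (median 0.08), and for 5 factors known at ribosomal protein promoters (median 0.11), Gabpa at 0.26 and Yy1 at 0.06 among them.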

How the data were processed

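ATAC-seq libraries of 3 Prr14-KO and 3 Prr14-WT quadriceps were compared. Build GRCm38 and the tools BWA, Trimmomatic, MACS2, bedtools, deepTools and DESeq2 1.6.3 are listed, without roles, in the submitters' processing notes. The authors deposited 1 table of whole-number counts per peak and library, with coordinates used as given. It also holds the authors' normalized signal, which is the count divided by 1 factor per library, and their log2 fold change of KO over WT. The deposited p-values, raw and adjusted, and a score per peak stand beside them; the score was not used. How reads were shifted, deduplicated and counted is not given in the sources used here.

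Counts were tested with edgeR 4.0.16 (R 4.3.3; TMM, filterByExpr with minimum count 10 and minimum total 15, quasi-likelihood test, two-sided) on the whole table, with Benjamini-Hochberg adjustment over 73896 peaks. The standard error is the log2 fold change divided by the square root of F, and 95% intervals use its t quantile. The common biological coefficient of variation was 0.201, and total counts of 7608514 to 12061822 per library limit precision. The fit was tested on simulated data. Deviations use log2(CPM + 0.1). Alternatives were other library factors, DESeq2 1.42.0, limma-voom (limma 3.58.1), no filter, 1 peak per gene and each library left out. Promoters come from RefSeq, GRCm38.p6. Named members were the 3 of highest and 3 of lowest log2 fold change, paralogs with their parents, the 5 highest and 5 lowest in level and members with known roles; Eef1a1 and members without overlap were named after their values were seen. Some items are not reported here. The members and lists were chosen with earlier results of these data known.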

Additional observations from a re-analysis of the deposited data

How the results depend on the processing

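No member was called in either direction under other library factors, DESeq2, limma-voom, no filter, 1 peak per gene or with any 1 library left out. Factors from the members' own counts make the members' sum equal in every library, and their median log2 fold change was then 0.016. That fit therefore cannot show a change shared by the members. No paired analysis was possible because the groups share only replicate number 4. The members' median log2 fold change was 0.30 with the authors' library factors, which shift all peaks, and 0.02 to 0.18 over the fits that each leave out 1 library. The share of counts, KO minus WT, was 0.010 to 0.031 percentage points with 1 library left out, 0.014 as summed TMM-scaled CPM in percent, and 0.0435 as a share of Promoter1k counts, which is a smaller denominator. With the authors' library factors the log2 fold change changed sign to 0.0135 at Rpl14, 0.0330 at Rps23, 0.0151 at Rps4x, 0.0477 at Rpl3 and 0.149 at the upstream Rpl3l peak. That peak also changed sign to 0.0316 with total counts, 0.00322 with limma-voom and 0.00685 with no filter. Rps27l changed sign to -0.0123 with factors from the members' own counts. With 1 library left out, Rps4x ran from -0.264 to 0.0199, Rpl22 from -0.0686 to 0.277 and upstream Rpl3l from -0.129 to 0.238. The cause was not tested. The depth and the spread of 3 libraries a group set a median interval width of 0.737 log2 units for a member, from lower to upper bound. Small changes at single promoters may thus go undetected, and the width itself is not a limit of detection.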

Other observations

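Outside the Promoter1k class, the deposited annotation assigned 159 further peaks to genes of the name pattern, 154 of them tested. By edgeR, 5 were higher and 2 lower in KO at an adjusted p below 0.05, where 2.77% of all tested peaks were higher and 4.23% lower, and these were named after their values were seen. All 5 higher peaks were intergenic, 116327 to 269687 bases from the start, and assigned to Rpl38 or Rps24, so the assignment rests on distance. The peak at -213422 bases from the Rpl38 start (chromosome 11, 114454817 to 114455387) had 7.52, 9.77 and 6.22 CPM in KO and 1.95, 2.11 and 2.63 CPM in WT, without overlap (log2 fold change 1.82, SE 0.31, adjusted p = 1.25e-06). A second, at -160703 bases, had 14.9, 13.4 and 13.8 CPM in KO and 5.04, 7.35 and 5.13 CPM in WT (log2 fold change 1.25, SE 0.24). At Rps24 the peak 269687 bases downstream had 12.01, 16.3 and 10.7 CPM in KO and 5.55, 3.68 and 8.68 CPM in WT (log2 fold change 1.15, SE 0.24). Of the lower peaks, the one assigned to Rpl15 was intronic (log2 fold change -0.96), and WT replicate 4 was its highest library. The promoter peaks of Rpl38 and Rps24 were not called.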
